A study of Rattus norvegicus with 60 samples.

Results

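Methylated DNA of the rat hippocampal area CA1 was compared between threat and place animals 24 h after training, over the genome regions that the capture enriched. The regions were 500-nt bins whose mean over the 10 captured 24 h libraries reached 1 RPKM and 2 times the mean of the 3 input libraries. RPKM is reads per kilobase of bin, scaled to library size. Of 5805202 bins, 85335 (1.47%) met both conditions and were tested. Of the tested bins 33.8% lay in a gene, against 27.9% of all bins.

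All animals were 90 to 120 d old rats of the Sprague-Dawley strain. The captured libraries of 24 h comprised 3 threat, 4 place and 3 naive libraries, beside 3 input libraries made without capture. The labels tie the series to contextual threat recognition training. They do not describe what threat, place and naive animals experienced, their sex, or whether a library came from 1 animal or a pool. Since the labels do not call the replicates different animals, each p-value reflects only how far these libraries scatter, perhaps for technical reasons. The question was which captured regions differ after threat training from those after place exposure as labelled, and whether a difference depends on signal level, gene overlap or chromosome.

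DNA methylation in vertebrates is the addition of a methyl group to cytosine, mostly where cytosine precedes guanine (a CG site). DNA methyltransferases write the mark, Tet enzymes start its removal, and methyl-binding domain (MBD) proteins read it. The assay used such a domain on beads to pull out fragments rich in methylated CG, so a bin's level depends on CG density, on methylation and on the efficiency of the capture. CA1 is required for contextual memory, and DNA methylation in it has been studied as part of memory consolidation.

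Bin sequences were not used here because no rn5 genome was at hand. Gene starts give a view of captured DNA, since promoters rich in CG are usually unmethylated in active genes and methylated in many genes restricted to germ cells or other tissues. A tested bin held the start of 452 genes, and their promoters, where one could be matched by symbol in RefSeq (162 genes), held a median of 11 CG in 300 bases. Over all 11591 genes matched in the same way the median was 18. The search letters were CG, which read the same on both strands, and 94.5% of the 33469 promoters of the RefSeq table hold at least 1. In these starts the mean mRNA level of the threat 24 h libraries was below 1 FPKM (fragments per kilobase, scaled to library size) for 67.7% of genes, against 45.0% of all genes.

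The promoters printed here belong to the 4 genes with the highest captured level among the 10 genes whose start bin was called higher in threat and whose promoter could be matched. Each runs from 250 bases before to 50 bases after the gene start of the RefSeq annotation of GRCr8, 5′ to 3′ on the gene's strand, with each CG in capitals. These starts may differ from those of the rn5 gene models used for the bins.
Igfbp1, chr14:86261027-86261326, plus strand: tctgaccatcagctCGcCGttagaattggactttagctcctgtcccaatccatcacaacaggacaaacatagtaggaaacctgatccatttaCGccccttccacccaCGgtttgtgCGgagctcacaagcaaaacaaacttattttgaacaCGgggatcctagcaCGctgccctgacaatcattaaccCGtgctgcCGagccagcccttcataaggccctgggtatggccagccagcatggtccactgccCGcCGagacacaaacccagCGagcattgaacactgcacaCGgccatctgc
Taar4, chr1:23301282-23301581, minus strand: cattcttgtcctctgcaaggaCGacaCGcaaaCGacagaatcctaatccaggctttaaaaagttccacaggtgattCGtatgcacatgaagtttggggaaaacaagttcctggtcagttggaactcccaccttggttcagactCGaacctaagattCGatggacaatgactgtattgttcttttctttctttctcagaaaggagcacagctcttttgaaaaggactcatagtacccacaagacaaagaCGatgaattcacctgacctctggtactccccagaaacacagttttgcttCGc
Tktl2, chr16:27976275-27976574, minus strand: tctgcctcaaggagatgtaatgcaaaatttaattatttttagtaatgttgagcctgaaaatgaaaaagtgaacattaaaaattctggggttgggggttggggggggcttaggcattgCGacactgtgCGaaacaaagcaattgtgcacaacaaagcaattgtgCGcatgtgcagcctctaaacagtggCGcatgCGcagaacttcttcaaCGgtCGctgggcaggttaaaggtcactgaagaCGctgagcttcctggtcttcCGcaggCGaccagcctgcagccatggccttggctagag
Pabpc2, chr18:31905077-31905376, plus strand: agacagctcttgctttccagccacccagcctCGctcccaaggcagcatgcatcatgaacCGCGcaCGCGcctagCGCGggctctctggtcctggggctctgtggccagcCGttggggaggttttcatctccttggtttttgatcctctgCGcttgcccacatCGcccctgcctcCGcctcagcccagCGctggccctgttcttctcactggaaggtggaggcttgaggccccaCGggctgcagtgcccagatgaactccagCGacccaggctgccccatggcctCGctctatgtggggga

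These 4 genes are normally used outside the brain's principal cells. Igfbp1 encodes a liver protein that binds insulin-like growth factors, Taar4 an olfactory receptor for trace amines, Tktl2 a transketolase-like enzyme and Pabpc2 a poly(A)-binding protein of the testis. The promoters held 13, 8, 10 and 15 CG in that order. The Igfbp1 start bin (chr14:81083001-81083500, rn5) had 2.23, 1.46 and 2.07 RPKM in threat libraries, and 1.54, 1.18, 1.204 and 1.02 RPKM in place libraries. 1 place library lay above the lowest threat library, and the log2 difference was 0.54 ± 0.16 (SE; limma, Benjamini-Hochberg adjusted p = 0.0401). The Pabpc2 start bin (chr18:32641501-32642000) had 1.74, 1.57 and 1.36 RPKM in threat libraries, against 1.03, 0.915, 0.840 and 1.14 RPKM in place libraries, and the groups did not overlap. The Tktl2 start bin (chr16:24835001-24835500) had 1.68, 1.87 and 1.73 RPKM in threat libraries, against 1.51, 1.00, 0.952 and 1.33 RPKM in place libraries. In the Taar4 start bin (chr1:24034501-24035000) the threat libraries had 1.82, 1.63 and 1.42 RPKM, and the place libraries 1.37, 0.856, 0.840 and 1.33 RPKM. After median-ratio scaling, which sets the typical tested bin equal in all libraries, the log2 differences of these 4 bins were 0.22 to 0.28. None then passed (limma adjusted p of 0.867 to 0.913). Naive libraries had 1.58, 1.75 and 1.66 RPKM in the Taar4 bin, within the threat range. In the Tktl2 bin they lay within the place range, and in the Igfbp1 and Pabpc2 bins they reached into both ranges. All 4 bins had an input mean below 0.5 RPKM, and mRNA of Taar4 and Tktl2 was listed at 0 in every 24 h RNA library, with at most 0.0987 FPKM for Igfbp1. Of the other called start genes with a promoter, Hormad1 (a protein of meiotic chromosome axes), Tcte1 (sperm tail) and Prss21 (a sperm protease) are used in germ cells, while Lrfn3 (synaptic adhesion) and Rnf220 (a ubiquitin ligase) had mRNA at 5.35 ± 0.416 and 36.0 ± 1.77 FPKM in threat libraries (SD, n = 6). Over all 452 start bins 33 (7.30%) were called higher and 1 lower, against 7.69% of all tested bins called higher.

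The captured 24 h libraries held 42.2 to 58.5 M reads, recovered from the deposited values, and tested bins held a median of 29 to 54 reads per library. The lowest totals were those of place replicate 4 and naive replicate 3. The threat libraries held 58.0, 54.8 and 56.2 M reads, against 57.2, 54.1, 57.0 and 42.2 M reads in place libraries. The tissue label was checked in the RNA libraries. The 6 CA1 pyramidal markers found summed to 622 to 1017 FPKM in threat libraries and 585 to 1030 FPKM in place libraries, and the 6 dentate granule markers to 19.3 to 50.1 and 21.8 to 39.3 FPKM. Oligodendrocyte markers summed to 1680.4 to 3014 FPKM in threat libraries and 1986 to 4043 FPKM in place libraries, so the dissections held myelinating cells too. RNA and captured DNA were separate samples, and the DNA has no marker of its own. In such bulk tissue a different mix of cells and a different level per cell cannot be told apart.

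As deposited, captured regions were higher in threat than in place libraries almost across the genome. The median over tested bins of log2(RPKM + 0.25) was 0.80, 0.72 and 0.64 in threat libraries, and 0.57, 0.46, 0.33 and 0.47 in place libraries. Naive libraries had 0.54, 0.51 and 0.43. All threat libraries lay above all place and naive libraries, and place and naive libraries overlapped. In each group the level fell from replicate 1 to replicate 3, and whether same-numbered libraries share a batch is not known. The threat minus place difference was 0.26 (exact 2-sided permutation test, p = 0.0571, the smallest that 3 against 4 libraries allow; adjusted over the 8 per-library values p = 0.0914). This design cannot reach 0.05.

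The same libraries differed in how their reads were shared between enriched and unenriched bins. Tested bins took 12.6, 12.2 and 11.2% of the RPKM total in threat libraries, against 10.3, 9.83, 9.08 and 9.72% in place libraries and 2.91 to 3.02% in input. Among bins with input above 0.25 RPKM, 2308455 had a captured level at or below input, and bins of lower input were left out. They took 21.3, 21.9 and 24.0% in threat libraries, against 26.03, 27.1, 29.7 and 27.5% in place libraries. Input libraries had 51.6 to 52.0% there. Neither measure overlapped between threat and place (exact permutation p = 0.0571 for each). Among the 7 threat and place libraries the order was the same in opposite directions, with place replicate 3 lowest in tested bins and highest in bins at or below input. All libraries have nearly the same RPKM total, so the share in tested bins is their summed RPKM on another scale. It is therefore no separate result beside the higher level of tested bins, and the cause of the difference was not tested.

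**Figure D1:**
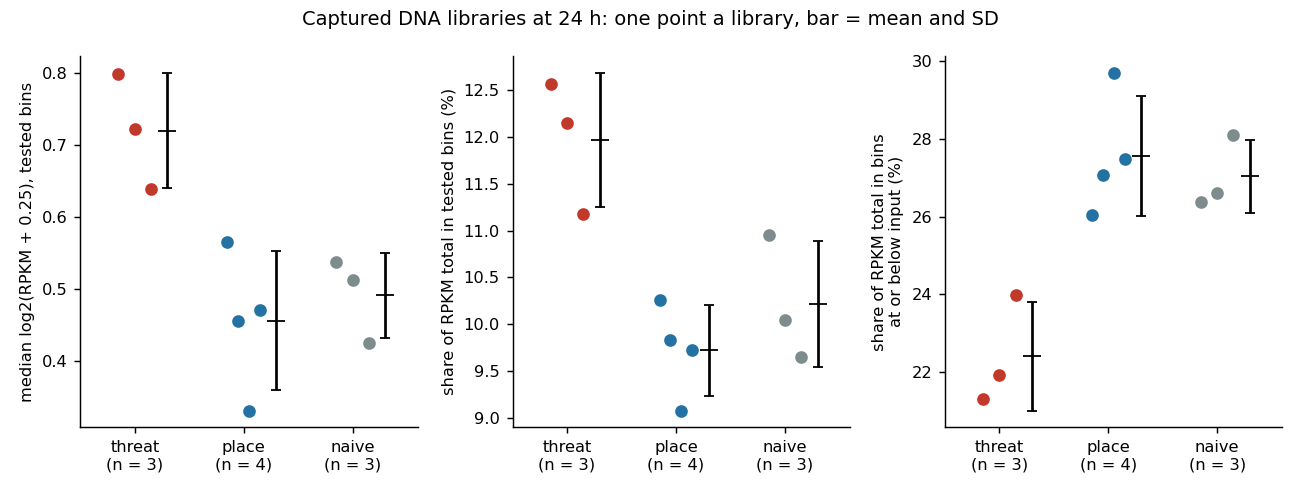
Each point is 1 captured 24 h library, and bars give the mean and SD of 3 threat, 4 place and 3 naive libraries. The left panel shows the median log2(RPKM + 0.25) over tested bins and the middle panel their share of the RPKM total. The right panel shows the share in bins at or below input, among those with input above 0.25 RPKM. There the threat libraries lie at 21.3 to 24.0% and the place libraries at 26.03 to 29.7%. Axes do not start at 0.

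Grouping all bins with input above 0.25 RPKM by captured over input level gave a graded pattern. In bins captured at less than 0.25 of input, the share of the total was 1.22 ± 0.197% in threat and 2.03 ± 0.338% in place libraries (SD, n = 3 and 4), a ratio of 0.602. The ratio of threat over place was 0.710, 0.829 and 0.913 in the next classes up to input level. It passed 1 only above input level, with 1.08 at 1.5 to 2 times input, 1.16 at 2 to 3 times, 1.23 at 3 to 5 times and 1.34 at 5 to 10 times. In each of the 10 classes the threat and place libraries did not overlap. 5 classes were lower and 5 higher in threat, so the tested bins, all at 2 times input or more, lie on the higher side.

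**Figure D2:**
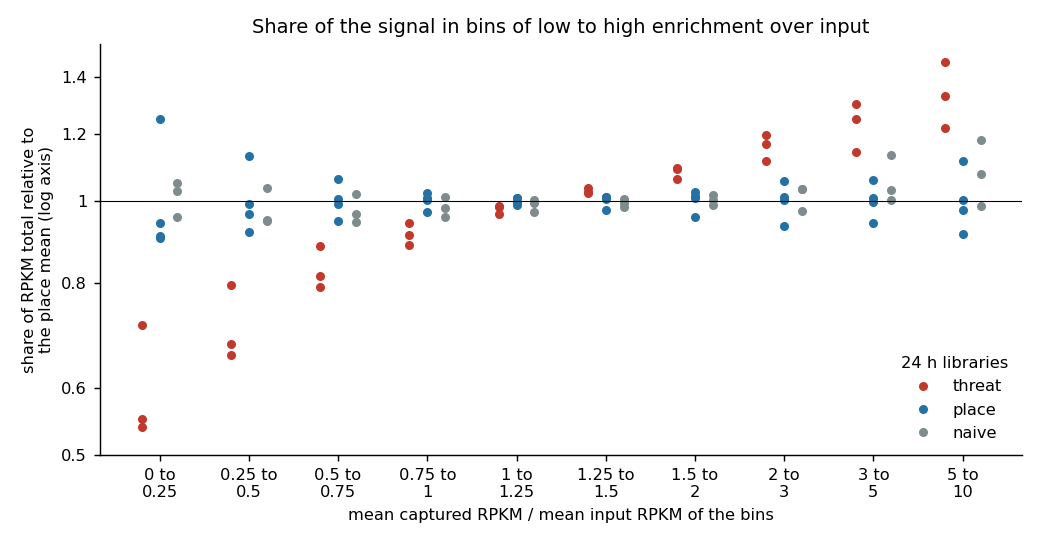
Bins are grouped along the horizontal axis by mean captured over mean input RPKM, and each point is the share of the RPKM total of 1 library at 24 h divided by the place mean (log axis). Threat libraries run from below the place libraries in the least enriched bins (mean ratio 0.602) to above them in the most enriched (1.34), and naive libraries lie near 1.

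With the values as deposited, 6566 bins were higher and 4 lower in threat (limma, adjusted p of 0.05; 31656 bins at an unadjusted p of 0.05). The background of higher calls is 7.69% of tested bins, and that of lower calls 0.00469%. Of all tested bins 94.96% had a positive difference, and the median log2 difference was 0.28. Summed RPKM over tested bins was 1.23 times as high in threat as in place libraries, which restates their share of the total. In 24577 bins (28.8%) all 3 threat libraries lay above all 4 place libraries, and in 63 bins (0.0738%) below. The count of calls depended on single libraries. It was 32 without threat replicate 1, 2 without threat replicate 2, 10 without place replicate 3, 161 without place replicate 4, 1587 without place replicate 2 and 15295 without place replicate 1. The median difference stayed between 0.24 and 0.31 in these fits.

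After median-ratio scaling, which sets the typical tested bin equal in all libraries, 0 bins were higher and 6 (0.00703%) lower (limma; 4841 at an unadjusted p of 0.05). The median difference was then 0.00. With 1 library left out before scaling, 10 bins were higher without threat replicate 3, 6 without place replicate 3 and 0 without any other library. edgeR with TMM factors gave 0 higher and 6 lower, DESeq2 0 higher and 7 lower, and quantile normalization 1 higher and 4 lower. The scaling factors were 1.23, 1.17 and 1.10 for threat libraries, and 1.02, 0.94, 0.85 and 0.93 for place libraries. Scaling on the bins at or below input moved the other way, with 68006 bins higher and 6 lower. Of all tested bins 50.7% were positive after median-ratio scaling, and the SD over bins was 0.16 on both scales.

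**Figure D3:**
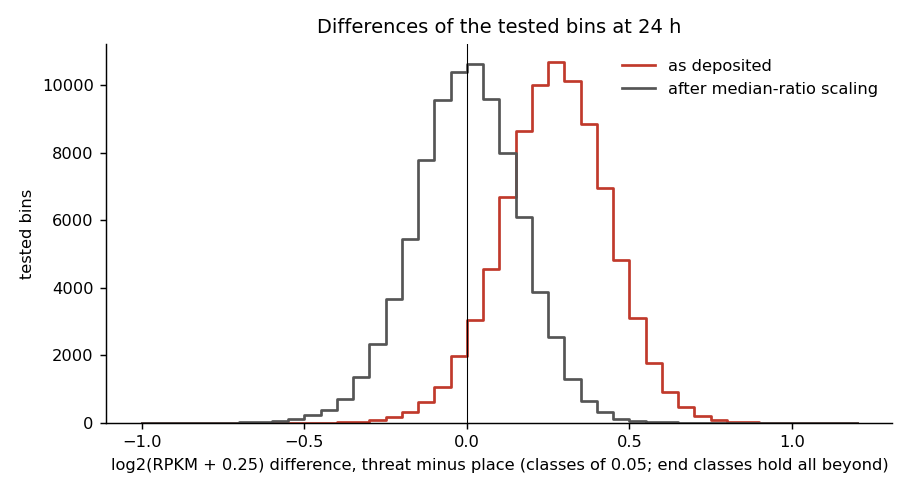
The curves count tested bins by their threat minus place difference in log2(RPKM + 0.25), as deposited and after median-ratio scaling. The whole distribution is displaced by about the median of 0.28 and keeps its width, with an SD of 0.16 on both scales.

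Along signal level the shift varied, by an amount that changed with the filter. From the lowest to the eighth decile of captured level the median log2 difference was 0.24 to 0.31, and it was 0.29 in the highest decile. Bins of 10 to 50 RPKM (1088 bins) had a median of 0.24 and the 233 bins of 50 RPKM or more 0.25. Calls were higher with level, from 2.99% of bins in the lowest decile to 11.9% in the ninth, where more reads lie behind each value. The highest minus the lowest decile was 1.33, 1.35 and 1.29 in threat libraries, against 1.28, 1.253, 1.203 and 1.29 in place libraries. This level contrast differed by 0.07 (exact permutation p = 0.0571, adjusted 0.0914), and by 0.03 after median-ratio scaling (exact permutation p = 0.229). Among bins kept at 2 RPKM or more it turned to -0.08 (exact permutation p = 0.229), while among bins kept at 0.5 RPKM or more it was 0.16 and with a pseudocount of 1 it was 0.10 (exact permutation p = 0.0571 for each). Just inside the level threshold (1 to 1.05 RPKM, 16225 bins) the median difference was 0.24, and just outside (0.95 to 1 RPKM, 20506 bins) 0.23.

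Along enrichment over input the shift also varied. The median log2 difference was 0.16 in the lowest decile of captured over input (median 2.22 times input) and 0.33 in the highest (5.29 times), with an unbroken increase between. Calls were 2.26% of bins in the lowest and 14.4% in the highest decile. The enrichment contrast, highest minus lowest decile within a library, was 0.23, 0.10 and 0.10 in threat libraries, against 0.08, -0.06, -0.09 and -0.11 in place libraries. The groups did not overlap, with a difference of 0.19 (exact permutation p = 0.0571, adjusted 0.0914) that was 0.19 after median-ratio scaling as well. The pattern was alike inside genes (0.17 and 0.32) and outside genes (0.16 and 0.34). Among bins kept at 0.5 RPKM or more the enrichment contrast was 0.13, below the level contrast of 0.16 in the same bins, and at 3 times input it was 0.09 beside a level contrast of 0.08. The order of the contrasts thus changed with the filter, and their difference was not tested. Median-ratio scaling left -0.11 in the lowest and 0.06 in the highest decile. Within the middle enrichment deciles (the fifth and the sixth) the lowest and the highest level decile had medians of 0.25 and 0.27.

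Gene overlap made no measurable difference. The 28846 bins in genes had a median of 0.28 with 7.24% called higher, and the 56489 bins outside genes 0.27 with 7.93%. The gene overlap contrast differed by 0.00 between threat and place (exact permutation p = 0.857), with -0.07, -0.13 and -0.11 in threat libraries and -0.08, -0.12, -0.10 and -0.12 in place libraries. Bins within 1 kb of a gene start (1843 bins) had a median of 0.30 and 9.12% called, other bins in genes 0.28 and 7.14%. That contrast differed by 0.02 (exact permutation p = 0.343), and it turned to -0.01 among bins kept at 0.5 RPKM or more. Outside genes the median was 0.27 within 10 kb of a gene, 0.28 at 10 to 100 kb and 0.27 beyond. With 3 and 4 libraries, differences of this size cannot be told from the spread between libraries, and the tests do not show that the classes are equal.

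As deposited, every chromosome carried the shift, and the libraries of the groups did not overlap on any of the 21. The medians ran from 0.26 on chromosome 9 to 0.29 on chromosome 14, and calls from 6.18 to 9.12% of a chromosome's bins. Chromosome X had 0.27 and 8.04%. The chromosome X contrast, X minus autosomes, was 0.15, 0.17 and 0.20 in threat libraries, and 0.18, 0.20, 0.18 and 0.18 in place libraries, a difference of -0.01 (exact permutation p = 0.343) whose sign turned with other filters. After scaling the chromosome medians lay between -0.01 and 0.02. Bins next to another tested bin had a median of 0.29 (9.48% called) and isolated bins 0.25 (5.11%).

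**Figure D4:**
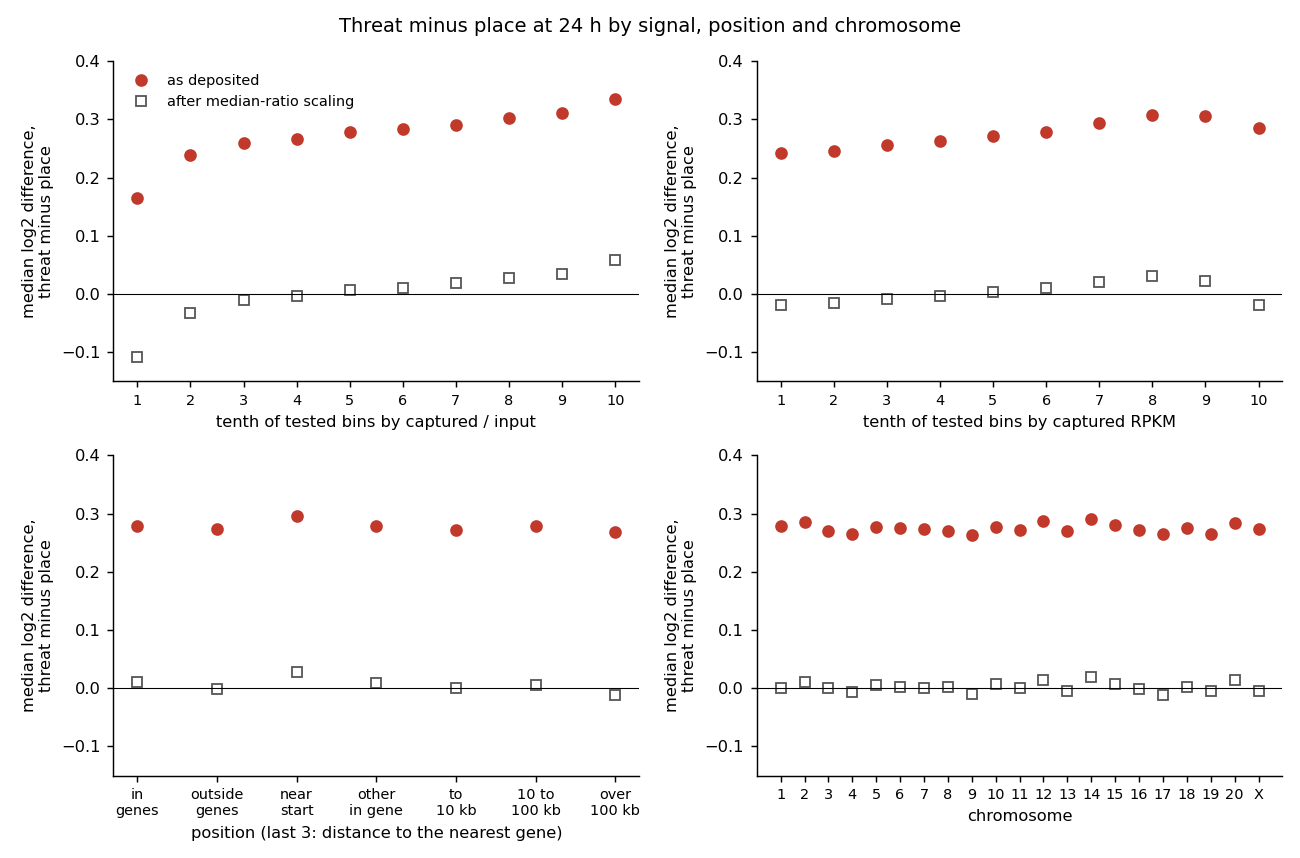
Each point is the median threat minus place log2 difference of the tested bins of a class, as deposited (filled) and after median-ratio scaling (open). The classes are deciles of captured over input level, deciles of captured level, position relative to genes, and chromosomes; the deposited values lie between 0.24 and 0.31 except along the enrichment deciles, from 0.16 to 0.33, and the scaled values lie around 0.

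The called bins of largest fold within genes with a symbol lay in genes of unrelated roles. The bins in Fig4 and RGD1559879 lay near each other on chromosome 20, so they may not be independent. A bin in Fig4 (a phosphoinositide phosphatase; chr20:47720001-47720500) had 2.37, 1.63 and 1.96 RPKM in threat libraries, against 1.09, 1.03, 0.924 and 0.606 RPKM in place libraries. Its log2 difference was 0.95 ± 0.16 (SE; limma adjusted p = 0.0133), and 0.68 after median-ratio scaling (adjusted p = 0.395). Input in the Fig4 bin was 0.240, 0.0805 and 0.190 RPKM at 24 h, but 6.57, 4.08 and 6.37 RPKM at 1 h. A bin in Dlgap2, which encodes a scaffold protein of excitatory synapses (chr16:79550501-79551000), had 2.32, 2.16 and 1.62 RPKM in threat libraries, against 0.755, 1.36, 0.728 and 1.02 RPKM in place libraries. The bins of this list were taken only among those whose threat and place libraries did not overlap, so that separation is no result. Bins in Wdfy3 (an autophagy adaptor), Pwp2 (ribosome assembly), Ano9 and 9030624J02Rik averaged 2.08, 1.70, 1.503 and 1.53 RPKM in threat libraries, against 1.04, 0.7999, 0.745 and 0.751 RPKM in place libraries. The bin in RGD1559879 (chr20:47783501-47784000), had 12.3, 12.1 and 10.9 RPKM in threat libraries, against 5.54, 6.11, 9.10 and 4.62 RPKM in place libraries. Naive libraries had 12.6, 8.97 and 10.1 RPKM there, with 1 above and 2 below the threat range and the lowest within the place range, and the 3 input libraries 2.16, 0.912 and 2.06 RPKM. None of these 7 bins passed after median-ratio scaling, where their differences were 0.59 to 0.68.

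Of the 4 called bins of largest fold outside genes, the one with the highest level lay on chromosome 1 (chr1:32415001-32415500), with 82.8, 75.4 and 68.1 RPKM in threat libraries, against 35.4, 31.8, 58.2 and 26.9 RPKM in place libraries. Naive libraries had 69.4, 55.0 and 56.1 RPKM, and input 10.5, 8.29 and 12.1 RPKM. Threat and place did not overlap, place replicate 3 stood above the other place libraries, and the log2 difference was 1.04 ± 0.15 (SE; adjusted p = 0.00272). The same bin at 1 h had a difference of 0.09 (limma adjusted p = 0.790). Captured libraries of 1 h had 19.6 to 22.6 RPKM there against 15.9 to 17.1 RPKM in input, short of 2 times input. The 2 times are thus not alike in this bin. The largest fold of all was in a weak bin on chromosome 3 (chr3:158648001-158648500), with 0.882, 1.98 and 1.88 RPKM in threat libraries against 0.671, 0.590, 0.420 and 0.568 RPKM in place libraries. Naive libraries had 1.88, 0.668 and 1.02 RPKM there and reached into both ranges. At 1 h the bin also varied within groups, with 2.01, 4.30 and 1.05 RPKM in threat and 3.35, 3.17, 3.84 and 1.57 RPKM in place libraries.

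Most called bins lay alone. The 6566 higher bins formed 5470 runs, of which 4520 were single bins, 950 held 2 or more adjacent bins and the longest 6. Of the 6207 tested bins next to a called bin 33.0% were themselves called, against 9.48% of all bins with a tested neighbour. Adjacent bins share fragments and methylation, so they are not independent. The longest run, outside genes on chromosome 14 (chr14:15279001-15282000), averaged 2.31, 1.88 and 1.92 RPKM in threat libraries, and 1.57, 1.42, 1.046 and 1.00 RPKM in place libraries. The next 4 runs held 5 bins each, 3 on chromosome 1 and 1 on chromosome 15, all outside genes, with mean log2 differences of 0.58 to 0.69. No bin of these runs passed after median-ratio scaling, where their means were 0.31 to 0.42.

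Bins called lower were few and mostly at 1 place. As deposited, 3 of the 4 lay in ENSRNOG00000039601 (chr16:15004318-15010064, minus strand, described in the RNA table as an uncharacterized protein), and the same gene held 4 of the 6 that were lower after scaling. These calls rested on few libraries. The deposited lower calls were 0 without threat replicate 1, threat replicate 2, place replicate 3 or place replicate 4, 1 without place replicate 2, 9 without place replicate 1 and 23 without threat replicate 3. After scaling the lower calls were 0 without threat replicate 2 or place replicate 4 and with the replicate block, 1 without threat replicate 1 or place replicate 2, 2 without naive replicate 1, 4 without naive replicate 3 and 15 without threat replicate 3. Its bin at chr16:15010001-15010500 had 11.6, 12.1 and 11.5 RPKM in threat libraries, against 15.9, 19.3, 13.7 and 21.4 RPKM in place libraries. Naive libraries had 11.7, 11.03 and 9.72 RPKM, close to threat. The log2 difference was -0.55 ± 0.14 (SE; limma adjusted p = 0.0302), and -0.87 after median-ratio scaling (adjusted p = 0.00413). The input libraries, which carry no capture, also differed from each other here, with 4.39, 7.51 and 3.83 RPKM in that bin and 3.03, 4.83 and 3.17 RPKM at chr16:15005001-15005500. Over tested bins of 2 RPKM or more in input the highest input library was a median of 1.19 times the lowest. The part of such differences in the DNA itself was not tested. Another bin lower after scaling lay outside genes at chr16:15525001-15525500, again with unequal input (1.38, 2.50 and 1.236 RPKM). The remaining bin, on chromosome 5 (chr5:29539501-29540000), had 1.32, 1.55 and 1.17 RPKM in threat libraries, against 2.82, 1.33, 2.52 and 2.39 RPKM in place libraries, and place replicate 2 lay within the threat range.

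**Figure D5:**
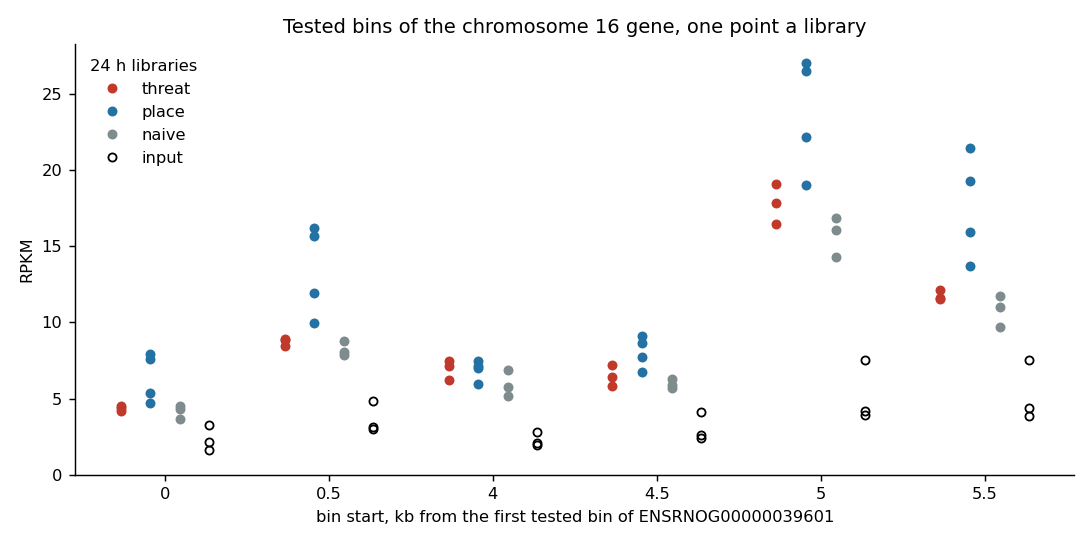
Each point is the RPKM of 1 library at 24 h in the 6 tested bins of ENSRNOG00000039601, placed by distance from the first, with input libraries as open circles. In the last bin the threat libraries lie at 11.5 to 12.1 RPKM and the place libraries at 13.7 to 21.4 RPKM, and 1 input library (7.51 RPKM) stands above the other 2.

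Averaged over genes the shift was steadier. Of 3272 genes with at least 3 tested bins (median 5), 2631 were higher and 1 lower in threat as deposited (limma adjusted p of 0.05), a background of 80.4% for higher and 0.0306% for lower calls. After median-ratio scaling 0 were higher and 0 lower (187 at an unadjusted p of 0.05), and 0 with quantile normalization (205). The count was 679 without threat replicate 1 and 1697 without place replicate 3. The spread of each gene is estimated by limma partly from all genes, and 3258 of the 3272 genes had a positive difference. Genes that move together within a library are not independent. These p-values and counts thus carry more certainty than 3 against 4 libraries can give, and the same holds for bins. Since nearly every gene moved, a high share of called members in a group of genes is no result about the group. The median after scaling, relative to the common shift, is therefore given beside that of each group.

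The gene of largest difference, RGD1559879, averaged 4.39, 4.26 and 3.90 RPKM over 5 bins in threat libraries, against 2.12, 2.43, 3.27 and 1.99 RPKM in place libraries. Naive libraries had 4.56, 3.40 and 3.62 RPKM, so the place libraries stood apart from both. Zscan10, a zinc finger factor of pluripotent cells, averaged 1.75, 1.56 and 1.49 RPKM in threat libraries, against 1.03, 1.09, 0.859 and 0.669 RPKM in place libraries. Its log2 difference was 0.68 ± 0.10 (SE; limma adjusted p = 0.000384), of which 0.41 was left after scaling (adjusted p = 0.680). Elmod3 (of a family that acts on Arf GTPases) averaged 2.78 ± 0.341 RPKM in threat and 1.66 ± 0.628 RPKM in place libraries, and Sertad4 3.06 ± 0.431 and 1.80 ± 0.406 RPKM (SD, n = 3 and 4). Jup, the junction protein plakoglobin, averaged 1.42 ± 0.168 and 0.883 ± 0.252 RPKM. Grhl3, an epithelial transcription factor, Csnk1g2, a casein kinase, and Zfp474 had log2 differences of 0.59, 0.57 and 0.57. The other 4 of the 12 carry identifiers only (such as ENSRNOG00000033337, 0.59). 2 of the 12 genes overlapped between groups, and none of the 12 passed after scaling. Over all 3272 genes, 2068 (63.2%) had every threat library above every place library.

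Few genes were lower. ENSRNOG00000039601 was the gene called lower, at -0.41 ± 0.16 (SE; adjusted p = 0.0223) and -0.73 after scaling (adjusted p = 0.264). Ndc80, a kinetochore protein, averaged 2.88, 0.797 and 2.34 RPKM in threat libraries, against 3.79, 2.23, 1.85 and 2.20 RPKM in place libraries, and overlapped. Ka11, ENSRNOG00000046059 and Trappc12 had -0.11, -0.20 and -0.05, with adjusted p-values of 0.340, 0.502 and 0.636. After scaling the lowest p-values among lower genes, besides ENSRNOG00000039601, belonged to Zfp641, Stx8, Camk1d and RT1-CE7, at -0.25, -0.31, -0.25 and -0.25 with adjusted p-values of 0.519 to 0.680. Camk1d encodes a calcium and calmodulin-dependent kinase and Stx8 a syntaxin of endosomes. As deposited these 4 were level, with differences of -0.04 to 0.04. By number of called bins, a choice made after values were seen, Dst (dystonin, a cytoskeletal linker) led with 11 of 65 tested bins. Abcc4 (an export pump) had 10 of 85, Tc2n 10 of 39, F8 8 of 40 and Pcdha8 (a protocadherin) 8 of 24. Over all tested bins 7.69% were called higher.

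Genes studied for methylation in memory moved with the rest as deposited, where 80.4% of all 3272 genes were called higher. Of 28 listed, 8 had at least 3 tested bins, of which 6 were higher and 0 lower; their median difference was 0.26 against 0.28 over all genes, and -0.01 after scaling, where 0 of 8 were called. Homer1, a postsynaptic scaffold, averaged 1.29 ± 0.145 RPKM in threat and 0.880 ± 0.118 RPKM in place libraries over 3 bins. Bdnf, which encodes brain-derived neurotrophic factor, averaged 1.504 ± 0.0852 and 1.10 ± 0.196 RPKM over 4 bins, and Prkcz (an atypical protein kinase C) 1.27 ± 0.248 and 0.979 ± 0.142 RPKM over 3 bins (SD, n = 3 and 4). Threat and place libraries did not overlap for Homer1 and Bdnf and overlapped for Prkcz. Over all 3272 genes 63.2% had every threat library above every place library. Their log2 differences were 0.45, 0.39 and 0.30, of which 0.19, 0.12 and 0.03 were left after scaling (unadjusted p of 0.0732, 0.139 and 0.787). Of the 25 immediate early transcription factors 4 had a tested bin, with 5 bins in all and 0 called. The share called higher over all tested bins was 7.69%.

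Synaptic genes followed the same pattern. The counts below stand beside 80.4% of all 3272 genes called higher as deposited and 0 after scaling. Among glutamate receptors 11 of 16 tested genes were higher as deposited and 0 after scaling, with medians of 0.27 and 0.00; the lowest p-values were those of Grin3b (an NMDA receptor subunit, 0.33), Grm6 (a metabotropic receptor, 0.32) and Grid1 (0.31). All 3 of the tested GABA genes were higher as deposited, with a median of 0.22, and -0.05 after scaling. For calcium, sodium and HCN channels 18 of 26 genes were higher as deposited and 0 after scaling (medians 0.30 and 0.03), with Cacna1s, Cacna2d2 and Cacna1e at 0.42 each. Potassium channels had 18 of 21 and 0 (medians 0.31 and 0.03), with Kcnk2 at 0.44 and Kcnk10 at 0.40. Postsynaptic scaffolds and kinases had 17 of 18 and 0 (0.28 and 0.01), with Kalrn, a signalling protein of dendritic spines, at 0.36 and Magi3 at 0.34. Cadherins and protocadherins had 19 of 21 and 0 (0.27 and 0.00), with Celsr3 at 0.36, and axon guidance genes 24 of 30 and 0 (0.26 and -0.01), with Sema3e at 0.43 and Epha2 at 0.36.

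No tested gene of the methylation machinery and no imprinted gene was called after scaling. Over all 3272 genes 80.4% were called higher as deposited, and the medians were 0.28 as deposited and 0.01 after scaling. Of 5 tested genes that write, read or erase DNA methylation 4 were higher as deposited and 0 after scaling (medians 0.34 and 0.07). Both medians lay above those of all genes, and this difference was not tested. Dnmt1, the maintenance methyltransferase, averaged 1.43 ± 0.190 RPKM in threat and 1.07 ± 0.0913 RPKM in place libraries over 13 bins, with a log2 difference of 0.34. Zbtb38, which binds methylated CG, had 0.44 and Dnmt3b 0.35. Imprinted genes had 8 of 9 and 0 (0.28 and 0.01), with Peg3 at 0.36, Inpp5f at 0.36 and Commd1 at 0.35. Histone modifiers had 11 of 14 and 0, Wnt and Notch genes 10 of 11 and 0, homeobox genes 6 of 7 and 0, and collagen and matrix genes 35 of 43 and 0, with medians of 0.28 to 0.30 as deposited and 0.01 to 0.04 after scaling. Examples were Fzd6 (0.39), Notch2 (0.34), Zfhx3 (0.39), Agrn (0.43) and Col23a1 (0.43). Among cell-type markers 2 of 2 tested genes of CA1 pyramidal cells (among them Wfs1 at 0.33), 2 of 2 of CA2 and CA3, 3 of 3 of dentate granule cells, 2 of 2 endothelial and mural, 2 of 2 of choroid plexus (Kl at 0.42 and Clic6 at 0.40) and 0 of 1 of oligodendrocytes were higher as deposited and 0 of any after scaling. Interneuron, astrocyte, microglia and blood markers had no gene with 3 tested bins.

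Between 6 threat and 5 place RNA libraries at 24 h, 0 of 13153 genes passed (limma on log2(FPKM + 1); 381 at an unadjusted p of 0.05, and 405 after median-ratio scaling). Of the genes in the gene fit, 2206 were tested in RNA and 59 had an unadjusted p below 0.05. Bdnf had 3.77 FPKM in threat and 2.93 FPKM in place libraries, a log2 difference of 0.25 (adjusted p = 1.00). Csnk1g2 had 31.6 ± 1.88 and 32.7 ± 1.46 FPKM, and Elmod3 3.44 ± 0.315 and 3.49 ± 0.274 FPKM (SD, n = 6 and 5).

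In the same bins at 1 h the difference in level was smaller and the libraries overlapped. The median log2 level was 1.52, 1.48 and 1.26 in threat libraries, and 1.303, 1.21, 1.29 and 1.46 in place libraries, a difference of 0.10 (exact 2-sided permutation p = 0.343). The share of the total in the bins that were at or below input at 24 h was 8.25, 8.11 and 10.3% in threat libraries. In place libraries it was 10.8, 13.0, 11.7 and 8.62%. The enrichment contrast at 1 h differed by 0.18 (exact permutation p = 0.171, with overlap), close to the 0.19 at 24 h. The same bins took 14.2 to 18.6% of the total in the threat and place libraries of 1 h. Of the 85335 bins 8 (0.00937%) were higher and 1 (0.00117%) lower at 1 h (limma; 7933 at an unadjusted p of 0.05), with 0 higher and 1 (0.00117%) lower after median-ratio scaling, and 0 of these 9 were among the 6570 called at 24 h. In the bins called higher at 24 h the median at 1 h was 0.17, against 0.12 over all tested bins. The interaction of group and time passed in 0 bins (limma; 6629 at an unadjusted p of 0.05, median 0.17), so a difference between the times was not shown. Without threat 24 h replicate 3 it passed in 19 bins, without threat 1 h replicate 2 in 7, without place 24 h replicate 3 in 3 and without place 1 h replicate 4 in 1. Against naive libraries at 24 h, which share the libraries compared so far, threat was higher in 9 bins and lower in 0 with a median of 0.23, and place was higher in 7 and lower in 0 with a median of -0.04.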

How the data were processed

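Per the labels, CA1 genomic DNA was enriched for methylated fragments with MethylMiner beads and sequenced. The deposited signal is RPKM per 500-nt bin, a read coverage that the authors scaled to library size. Chromosome-end bins shorter than 500 nt (21) were dropped. Tools listed without roles in the submitters' processing notes are Bowtie, edgeR, TopHat 1.4.0 and DESeq2, with builds rn5 and mm10. The table is titled GRCm38, but its chromosome 1 ends at 290094216, so positions are rn5. RPKM steps gave whole reads for 100% of values (tolerance 0.1 reads). The RNA values are deposited FPKM per gene, whose positions gave gene overlap (equal to the deposited annotation for 99.97% of bins); read depth of RNA is not given.

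Bins were tested with limma 3.58.1 (trend) on log2(RPKM + 0.25) of the 10 captured 24 h libraries, with Benjamini-Hochberg adjustment over all tested bins, and genes on means over at least 3 bins. FPKM was tested as log2(FPKM + 1) for genes at 1 FPKM or more in 5 libraries. Differences on these scales understate changes of low values. Recovered reads were tested with edgeR 4.0.16 and DESeq2 1.42.0. Per-library values were compared by exact permutation (scipy 1.17.1; 35 splits), adjusted over 8 values. Contrasts are medians of 1 class of bins minus another within a library. Alternatives were other scalings, pseudocounts, filters, a replicate block, array weights and leaving out libraries. The procedure was tested on simulated counts. The region rule and the 26 gene lists (784 of 801 genes found, 15 by synonym) were chosen with earlier results of these data known. Named bins and genes are those of largest fold among calls (8 bins and 12 genes a direction, 8 genes after scaling, 5 runs), the 5 of lowest p where fewer than 5 passed, up to 3 list members of lowest p, and those stated as chosen later. The 8 bins were taken among those in genes with a symbol whose threat and place libraries did not overlap. Promoters are from RefSeq (GRCr8). Some named genes and 1 list are not reported here.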

Additional observations from a re-analysis of the deposited data

Results flagged for a closer look

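In 98 sets of 4 place libraries, 1 per-library value or named bin or gene each, 5 held a library far from the other 3, and chance alone flags about 1 in 20 such groups. The Ndc80 bin (chr9:119320001-119320500) reached 6.74 RPKM in place replicate 1, against 3.08 to 3.57 RPKM in the other place libraries. ENSRNOG00000033337 averaged 1.26 RPKM in place replicate 1, with the other 3 at 1.09 to 1.12 RPKM. RT1-CE7 averaged 1.87 RPKM in place replicate 3, the lowest of the group. Kcnk2 averaged 1.33 RPKM and Sema3e 1.18 RPKM in their highest place library.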

How the results depend on the processing

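Differences given here are log2, threat minus place. Against 6570 called bins as deposited, 6 were called with median-ratio scaling, 5 with quantile normalization, 68012 with background scaling, 1152 with a floor of 0.5 RPKM, 955 with 2 RPKM, 3524 at 1.5 times input, 10099 at 3 times input, 18233 with array weights, 10574 with edgeR on library totals, 6 with edgeR and TMM and 7 with DESeq2. Leaving out 1 library gave 2 to 15295 bins, 679 to 2883 genes and 0 to 19 bins in the interaction. Against 2632 called genes, 0 were called with median-ratio scaling, 0 with quantile normalization, 5781 of 11424 with 0.5 RPKM, 83 of 109 with 2 RPKM and 1611 of 1748 with at least 5 bins. The filters also change how many features are tested; other causes were not tested. No setting run gave a called RNA gene. Same-numbered threat and place libraries had correlated deviations of r = 0.0488, 0.0312 and 0.0214. For same-numbered naive and place libraries r was 0.0437, 0.0398 and 0.0509. These values are small, but each threat and naive library correlated best with the place library of its own number. Such correlations across bins take no account of a level common to all bins of a library. That level, the median log2 of tested bins, fell from replicate 1 to replicate 3 in each group. It was 0.80, 0.72 and 0.64 in threat, 0.57, 0.46 and 0.33 in place, and 0.54, 0.51 and 0.43 in naive replicates 1 to 3. The labels do not say whether same-numbered libraries share a batch, and this was not tested. The replicate block gave 12451 bins, 2794 genes, 0 interaction bins and 0 RNA genes.

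Signs turned as follows. The median level was -0.00643 after median-ratio scaling, and the level contrast -0.0825 with 2 RPKM. The gene overlap contrast was -0.0011 with a pseudocount of 1, -0.00512 with 2 RPKM, -0.0023 at 3 times input and -0.0115 to 0.0182 with 1 library left out. The gene start contrast was -0.0099 with 0.5 RPKM, and the chromosome X contrast 0.068 with 0.5 RPKM and 0.0227 at 3 times input. Without threat replicate 2 the Ndc80 bin was at 0.0355, the Ndc80 gene at 0.0866 and Trappc12 at 0.0331. Background scaling gave 0.154 for Ka11, 0.0924 for ENSRNOG00000046059, 0.191 for Trappc12 and 0.203 for Stx8. Ka11 was at 0.00714 and Stx8 at 0.0526 without threat replicate 3. Trappc12 was at 0.0058 with 0.5 RPKM, 0.00356 with the replicate block and 0.00356 without place replicate 4, and Stx8 at 0.137 with 0.5 RPKM and 0.0134 with array weights. Median-ratio scaling gave -0.249 for Zfp641, -0.245 for Camk1d and -0.25 for RT1-CE7, and quantile normalization -0.275, -0.268 and -0.251. Array weights gave -0.0861 for Camk1d and -0.0129 for RT1-CE7. Without threat replicate 1 ENSRNOG00000046059 was at 0.303, Zfp641 at -0.0255, Camk1d at -0.0663 and RT1-CE7 at -0.0403; without place replicate 3 Zfp641 was at -0.0219 and Camk1d at -0.0335. Leaving out 1 library at a time gave at the low end -1.11 for the Ndc80 bin, -0.702 for the Ndc80 gene, -0.298 for Ka11, -0.683 for ENSRNOG00000046059, -0.17 for Trappc12 and -0.104 for Stx8, and at the high end 0.0553 for Zfp641, 0.0833 for Camk1d and 0.0961 for RT1-CE7. Over the 23 named bins and 67 named genes, 413 and 1248 alternative values kept direction and call, and 108 and 147 kept direction but lost the call. The median tested bin held 29 to 54 reads per library, which limits the precision of a single bin.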
